A study of Acomys cahirinus and Mus musculus with 10 samples.

Results

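The 10 genes described here encode enzymes and a chaperone that build and cross-link collagen: the lysyl oxidases *Lox*, *Loxl1*, *Loxl2*, *Loxl3* and *Loxl4*, the lysyl hydroxylases *Plod1* and *Plod2*, the prolyl 4-hydroxylase subunits *P4ha1* and *P4ha2*, and the collagen chaperone *Serpinh1*. They were taken by name, and all 10 had a value in each of the 8 comparison tables (in *A. cahirinus* through an assembled component with 88.77% to 92.43% identity to the mouse transcript), which hold 23023 genes in *M. musculus* and 659480 assembled components in *A. cahirinus* at D5. RNA came from a ring of ear tissue about 1 mm proximal to the margin of a 4-mm ear punch in sexually mature females. The spiny mouse *A. cahirinus*, which closes such holes by regeneration, was compared with the outbred CD1 laboratory mouse *M. musculus*, which scars. In each species uninjured ears (D0) were set against ears at D5, D10, D15 and D20 after the punch. The study names no treatment of these groups besides the punch and the isoflurane anaesthesia of its punch assay, and describes 3 animals per group. The tables give 1 pooled value per group, so no spread between animals can be given, and the samples of a species share a single D0 group in all 4 comparisons.

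Newly made collagen chains are hydroxylated on proline and lysine in the endoplasmic reticulum before they wind into a triple helix. Prolyl 4-hydroxylase stabilizes the helix, lysyl hydroxylase prepares lysines for cross-linking, and the chaperone encoded by *Serpinh1* (HSP47) binds the folded helix and leaves it before secretion. Outside the cell, copper-dependent lysyl oxidases oxidize lysines of collagen and elastin, and the reactive groups then join neighbouring molecules into the cross-links that make skin and scar stiff.

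The lysyl oxidases share a catalytic domain with a run of histidines that holds copper, and a stretch of 72 coding bases around this run is shown for the 4 lysyl oxidase-like genes, because it belongs to the conserved end of the enzymes, where assembled sequences of different members can be confused. Capitals mark the 4 histidine codons, *M. musculus* sequences are from GENCODE transcripts on GRCm38, and *A. cahirinus* sequences are from the assembled components of the study, that of *Loxl1* from a component that also holds *Lox* sequence.
Loxl1, M. musculus: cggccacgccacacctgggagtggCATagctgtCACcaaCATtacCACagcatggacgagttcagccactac
Loxl1, A. cahirinus: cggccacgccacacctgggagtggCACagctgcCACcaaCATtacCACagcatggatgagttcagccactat
Loxl2, M. musculus: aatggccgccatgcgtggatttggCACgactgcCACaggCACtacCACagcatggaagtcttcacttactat
Loxl2, A. cahirinus: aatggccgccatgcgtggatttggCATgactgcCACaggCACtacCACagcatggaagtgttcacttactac
Loxl3, M. musculus: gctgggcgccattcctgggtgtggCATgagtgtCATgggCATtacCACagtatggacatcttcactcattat
Loxl3, A. cahirinus: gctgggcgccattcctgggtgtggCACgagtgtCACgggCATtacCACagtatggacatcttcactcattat
Loxl4, M. musculus: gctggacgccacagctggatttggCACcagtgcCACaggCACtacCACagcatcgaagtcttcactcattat
Loxl4, A. cahirinus: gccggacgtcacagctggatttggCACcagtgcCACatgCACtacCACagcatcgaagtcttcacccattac
The *M. musculus* stretches cross 1 intron each, in *Loxl1* between exons 3 and 4 (chr9:58293696-58294396, minus strand), in *Loxl2* between exons 10 and 11 (chr14:69682301-69689061, plus strand), in *Loxl3* between exons 10 and 11 (chr6:83049980-83050149, plus strand) and in *Loxl4* between exons 11 and 12 (chr19:42598783-42599914, minus strand). Between species the stretch differed by 4 bases in *Loxl1*, 3 in *Loxl2*, 2 in *Loxl3* and 5 in *Loxl4*, and of the 24 encoded residues only 1, in *Loxl4*, differed. Between the *M. musculus* genes it differed by 12 bases for *Loxl2* and *Loxl4* and by 27 for *Loxl1* and *Loxl2*. Each *A. cahirinus* stretch was thus closer to its own *M. musculus* gene than any pair of these genes was to each other. The stretches had been picked by their match to that gene, and *Lox* was not compared.

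*Plod2* has an alternative exon of 63 bases, exon 14 of its longer transcript (chr9:92601985-92602047, plus strand), whose inclusion makes the long form of the enzyme that is known to act on the collagen telopeptides. It is shown with 15 bases of the exon on either side, the alternative exon in capitals.
Plod2, M. musculus: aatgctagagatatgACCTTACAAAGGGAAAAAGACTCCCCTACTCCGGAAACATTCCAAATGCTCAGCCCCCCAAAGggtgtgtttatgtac
Plod2, A. cahirinus: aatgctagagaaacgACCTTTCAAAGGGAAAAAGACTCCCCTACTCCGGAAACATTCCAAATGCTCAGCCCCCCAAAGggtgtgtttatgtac
The deposited *M. musculus* reference held 2 *Plod2* transcripts, 1 with the exon and 1 without it. Of the 61 isoforms of the *A. cahirinus* component, 36 held the exon and 0 joined the flanking exons without it. Values sum all isoforms of a gene, so the *M. musculus* values of *Plod2* below count both forms together. Those of *A. cahirinus* sum all isoforms of the component. Isoforms there other than the 36 showed neither the exon nor the join without it, and reads were not searched. Whether *A. cahirinus* also makes the form without the exon was therefore not tested.

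The last 60 coding bases of *Serpinh1* (exon 5, chr7:99346123-99346182, minus strand) end in the signal that returns the chaperone to the endoplasmic reticulum, its 4 codons in capitals.
Serpinh1, M. musculus: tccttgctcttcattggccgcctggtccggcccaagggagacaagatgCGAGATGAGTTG
Serpinh1, A. cahirinus: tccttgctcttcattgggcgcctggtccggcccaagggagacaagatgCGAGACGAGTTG
This end differed by 2 bases between species. Sequence of *Lox* is not shown.

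The values below are group means of normalized read counts, recovered from the 2 ratios that each table gives per gene and put on 1 scale per species. Where 5 means are listed they follow the order D0, D5, D10, D15, D20, and 4 fold changes follow the order of the 4 later days. A gene is called changed where the study's EBSeq posterior probability of a difference from D0 was at least 0.95, and log2 fold changes are of the day over D0. At D0 the counting error of a member's mean over 3 libraries was between 0.852% (*Loxl4* in *A. cahirinus*) and 7.14% (*Loxl3* in *A. cahirinus*), which leaves out the variation between animals. The steps between the lowest means of a table showed 3 libraries per group, apart from D15 in *A. cahirinus* with 2, so the values of that group may rest on fewer animals. Species were normalized separately, and levels are compared within a species only.

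In *M. musculus* most of these genes rose from D5 on and stayed up to D20, while in *A. cahirinus* most rose from D10. *Loxl4* alone among the 10 fell, in both species and on every day. In *M. musculus* 8 members were called higher at D5, where 16.5% of all genes and 23.8% of genes with a mean of at least 10 were called higher. At D10 the count was 9, against 15.1% of all genes and 21.3% of those with a mean of at least 10. It was 8 at D15, against 13.2% and 18.9%, and 8 at D20, against 12.3% and 17.6%. The median member log2 fold change in *M. musculus* ran 1.03, 1.44, 1.24 and 1.01 over the 4 days, whereas the median over genes with a mean of at least 10 was 0.01 on each day.

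In *A. cahirinus* 3 members were called higher at D5, namely *Loxl3*, *Plod1* and *Serpinh1*. There 1.78% of all components and 7.52% of those with a mean of at least 10 were called higher. The count went up to 8 at D10, against 1.28% and 5.06%. It was 7 on D15, against 1.33% and 5.13%, and 5 on D20, against 0.948% and 4.02%. The median of the members ran 0.16, 0.96, 0.82 and 0.63, against 0.02, 0.01, 0.02 and -0.02 over components with a mean of at least 10. The assembly splits many genes into several components, so its shares are of components rather than genes.

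Called lower was 1 member, *Loxl4*, on each day in each species. Among genes with a mean of at least 10, the share called lower in *M. musculus* was 19.4%, 19.6%, 17.9% and 17% over the 4 days. Of *A. cahirinus* components it was 4.09%, 3.37%, 4.11% and 3.86%.

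**Figure D1:**
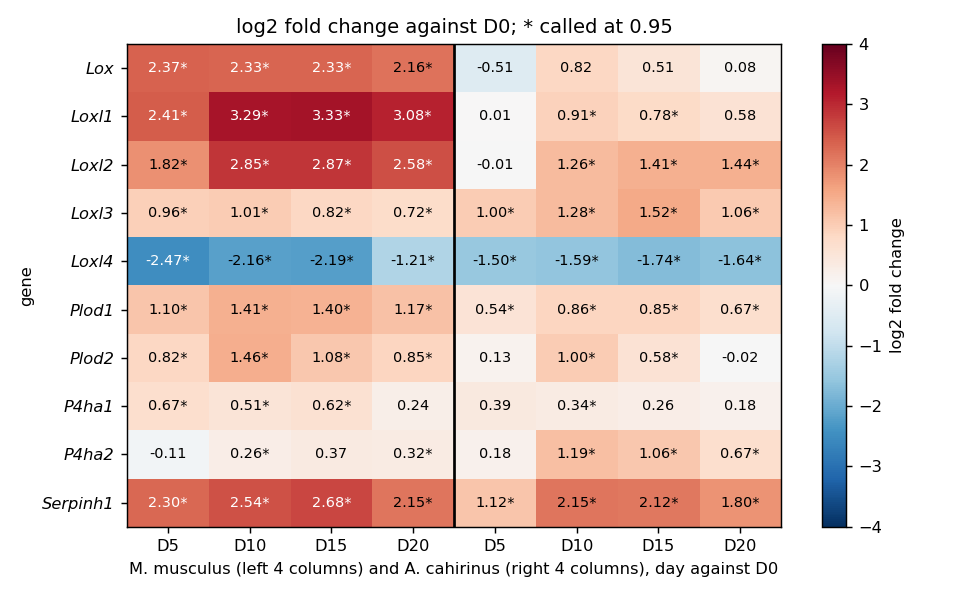
Log2 fold change against D0 of each gene (rows) at D5 to D20 (columns), *M. musculus* on the left and *A. cahirinus* on the right, with an asterisk where the posterior probability was at least 0.95. The left block is red from D5 apart from *Loxl4* and *P4ha2*, and most of the right block turns red at D10.

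*Lox*, the founding enzyme of the family, which oxidizes both collagen and elastin, had means of 718, 3705, 3611, 3621 and 3215 in *M. musculus*. It was 5.16-fold higher at D5 and called on all 4 days, with a plateau from the first day sampled. In *A. cahirinus* its means were 451, 316, 796, 643 and 477, and it was called on no day. The log2 fold change there was -0.51 at D5 and 0.82 at D10, the latter with a posterior probability of 0.816. *Lox* in *A. cahirinus* was split over components: the one with the best match covers an upstream stretch of the transcript, and a second, which matches a stretch farther downstream, had means of 859.6, 695, 1998, 1598 and 1243. That second component was called higher at D10 (log2 fold change 1.22) and D15 (0.89) and not at D5 (-0.31) or D20 (0.53). Both components were lowest at D5 and highest at D10, and neither was near the *M. musculus* log2 fold changes of 2.16 to 2.37.

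The gene *Loxl1*, which is tied to elastic fibres through its binding to fibulin 5, had the largest rise of the 10 in *M. musculus*. Its means were 156, 827, 1525, 1571 and 1314, which is 10.1-fold at D15. In *A. cahirinus* the best-matching component had means of 1760.0, 1778, 3308, 3024 and 2634, with calls at D10 (log2 fold change 0.91) and D15 (0.78). At D20 its log2 fold change was 0.58 and its posterior probability was 0.949, just under the threshold.

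That *A. cahirinus* component is not *Loxl1* alone. Of its 25 isoforms with a match in the BLASTN table, 14 matched both *Loxl1* and *Lox*, the best of the *Lox* matches with 89.42% identity over 756 bases, so reads from that stretch of *Lox* can be counted in it. A second component that matched *Loxl1* (92.32% identity over 833 bases of the first part of the gene) and not *Lox* had means of 249, 453, 788, 886 and 815. It was called higher on all 4 days, with log2 fold changes of 0.86, 1.66, 1.83 and 1.71. An alternative, chosen after seeing the data, used this component for *Loxl1* and the second component described above for *Lox*. With it, *A. cahirinus* members called higher were 4, 9, 8 and 6 over the 4 days. The added calls were of *Loxl1* at D5 and D20 and of *Lox* at D10 and D15. The best-matching *Lox* component had no isoform that matched *Loxl1*, so only the *Loxl1* swap separates a mixed component. The second *Lox* component is a weaker match, with 85.56% identity over 367 bases.

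**Figure D2:**
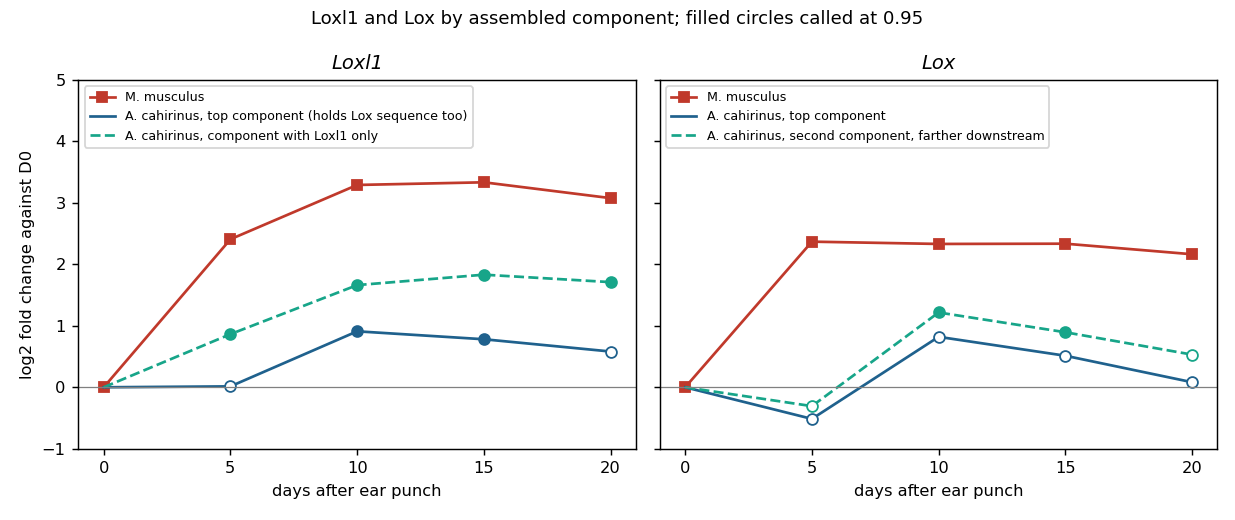
Log2 fold change against D0 (vertical axis) by days after the punch, for *Loxl1* (left) and *Lox* (right) in *M. musculus* (squares) and in 2 components of *A. cahirinus* (circles, filled where called). The *Loxl1* component without *Lox* sequence reached 1.83 at D15 where the mixed component was at 0.78, and both lay under the *M. musculus* line.

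*Loxl2*, an enzyme that cross-links type IV collagen of basement membranes as well as fibrillar collagen, rose in both species at different days. In *M. musculus* its means were 686, 2419, 4938, 5027 and 4116, and it was called on all 4 days, 7.32-fold higher at D15. In *A. cahirinus* they were 887, 882, 2123, 2351 and 2400.4. The D5 mean was at the D0 level there (log2 fold change -0.01), and the 3 later log2 fold changes were 1.26, 1.41 and 1.44, all called.

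*Loxl3*, whose product cross-links matrix during the development of palate and spine, rose from D5 in both species. Its means in *A. cahirinus* were 65.5, 131, 159, 187 and 137, called on all 4 days, 2.00-fold higher at D5 and 2.86-fold at D15. In *M. musculus* they were 135, 263, 272, 239 and 223, also called on all 4 days, 1.65-fold to 2.01-fold higher. The difference of the log2 fold changes, *M. musculus* minus *A. cahirinus*, lay between -0.70 and -0.04, a difference that could not be tested without values per animal.

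*Loxl4*, a member of the *Loxl2* type with scavenger receptor domains, fell. In *M. musculus* its means were 1756, 317, 393, 384 and 760.1, so that D5 was at 0.18 of the D0 mean and D20 at 0.433. In *A. cahirinus* they were 4591, 1623, 1523, 1370.4 and 1476, with log2 fold changes between -1.50 and -1.74. The *M. musculus* level had partly come back at D20, and the *A. cahirinus* level had not.

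Read per kilobase of the longest reference transcript, which allows genes to be compared within *M. musculus*, the family changed its make-up. At D0 *Loxl4* was the highest of the 5 lysyl oxidases, with 47.4% of their summed level per kilobase, followed by *Lox* (21.5%), *Loxl2* (19.3%) and *Loxl1* (6.86%), with *Loxl3* the lowest. At D5 *Lox* led with 47.5% and *Loxl4* held 3.66%. At D10 *Loxl2* led with 41.5%, *Lox* had 32.3%, and *Loxl1* reached its largest share, 20.4%, at D15. At D20 *Loxl2* still led with 38.8%, and *Loxl4* had 6.87%. *Loxl3* held 2.56% at D15, its smallest share, and 4.09% at D5. The error of these shares between animals could not be measured, they depend on the transcript length used, and the same reading was not made in *A. cahirinus*, where *Lox* and *Loxl1* share a component.

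**Figure D3:**
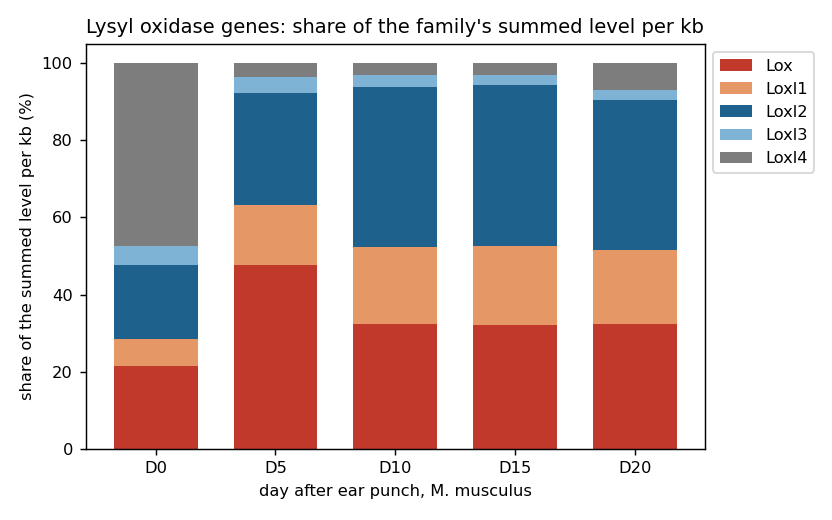
Share of each lysyl oxidase gene in the summed level per kilobase of the 5 genes (vertical axis, %) at D0 to D20 in *M. musculus* (bars). *Loxl4* takes 47.4% of the D0 bar and 3.66% of the D5 bar.

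Lysyl hydroxylases rose in both species by less than *Loxl2* or *Serpinh1* did in *M. musculus*. *Plod1*, which hydroxylates lysines within the collagen helix, had means of 198, 425, 527, 522 and 445 in *M. musculus* and of 300.3, 437, 544, 543 and 479.6 in *A. cahirinus*. It was called on all 4 days in both, 2.67-fold higher at D10 in *M. musculus* and 1.81-fold in *A. cahirinus*.

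*Plod2*, the lysyl hydroxylase of the telopeptides and the one linked with hard-to-degrade cross-links in fibrosis, peaked at D10 in both species. Its *M. musculus* means were 102, 179.5, 281, 216 and 184, called on all 4 days, at D5 with a posterior probability of 0.960. In *A. cahirinus* they were 366, 402, 733, 546 and 362. In *A. cahirinus* it was 2.00-fold higher at D10 and 1.49-fold at D15, both called, and 0.989 of D0 at D20, so the mean was back at its D0 level while that of *M. musculus* was still 1.81-fold higher.

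The catalytic subunits of prolyl 4-hydroxylase had the mean log2 fold changes nearest to 0 among the 10 in *M. musculus*. *P4ha1*, the main isoform in most cells, had means of 253, 402, 361, 389 and 298 in *M. musculus*, with calls at D5, D10 and D15 and a largest log2 fold change of 0.67 at D5. In *A. cahirinus* its means were 497, 649.8, 631, 597 and 562, and it was called at D10 alone (log2 fold change 0.34), although the D5 log2 fold change was 0.39 with a posterior probability of 0.293.

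*P4ha2*, the isoform abundant in cartilage and bone cells, had means of 241, 224, 289.6, 312 and 300.5 in *M. musculus*. The log2 fold changes were -0.11, 0.26, 0.37 and 0.32, of which D10 and D20 were called and D15 was not, with a posterior probability of 0.762. In *A. cahirinus* its means were 189, 214, 432, 395 and 301, called at D10 (2.29-fold), D15 (2.09-fold) and D20 (1.59-fold). *P4ha2* and *Loxl3* were the members for which *A. cahirinus* had the higher log2 fold change on all 4 days.

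*Serpinh1* rose in both species on all 4 days. In *M. musculus* its means were 588, 2904, 3412, 3775 and 2605, 6.42-fold higher at D15. In *A. cahirinus* they were 906, 1971, 4032, 3943 and 3162, 4.45-fold higher at D10. It had the largest log2 fold change of the 10 in *A. cahirinus* at each day, 1.12 at D5 and 2.15, 2.12 and 1.80 later. Per kilobase in *M. musculus* it was second to *Loxl4* at D0 and the highest of the 10 from D5 to D20. The *M. musculus* tables carry gene numbers without names, and the number of *Serpinh1* was placed with a probability of only 0.689. Of the numbers between its neighbours *Map6* and *Gdpd5*, it is the one that has a row in the 4 tables, and the other, 26762, has none. The placement already used which numbers have a row, so this is not separate support. The other 9 members were placed with a probability of at least 0.9.

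**Figure D4:**
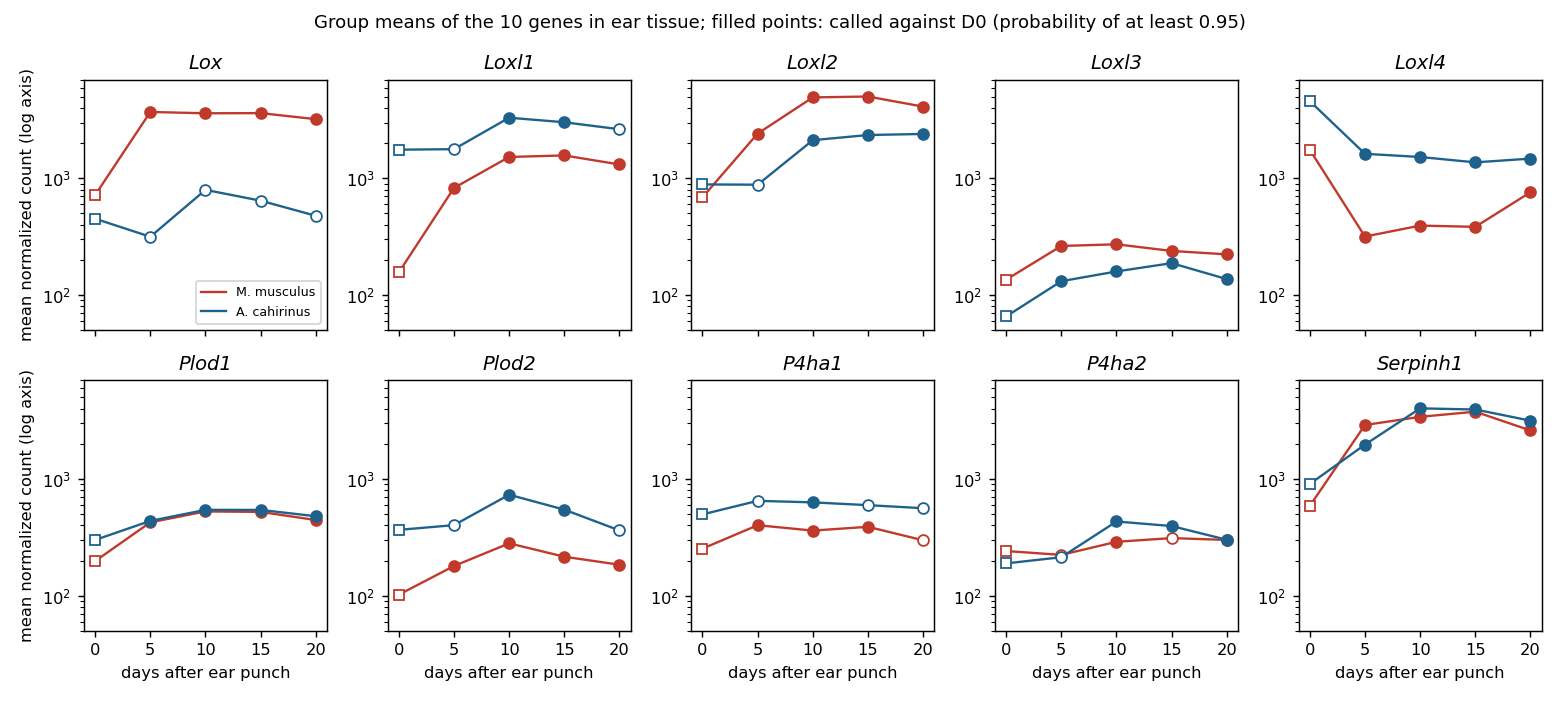
Group mean of normalized counts (vertical axis, logarithmic) by days after the punch for each gene, *M. musculus* in red and *A. cahirinus* in blue, with filled points where the day was called against D0 and squares at D0. *Lox* rose from 718 to 3705 at D5 in *M. musculus* and has no filled point in the best-matching component of *A. cahirinus*, *Loxl4* fell in both, and *Serpinh1* rose on all 4 days in both.

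The species are set side by side by the average of the 4 log2 fold changes, as a description without a test. It was higher in *M. musculus* for *Loxl1* (3.03 against 0.57), *Lox* (2.30 against 0.23), *Loxl2* (2.53 against 1.02), *Plod2* (1.05 against 0.42), *Serpinh1* (2.42 against 1.80), *Plod1* (1.27 against 0.73) and *P4ha1* (0.51 against 0.29). It was lower in *M. musculus* for *P4ha2* (0.21 against 0.78), *Loxl4* (-2.01 against -1.62) and *Loxl3* (0.88 against 1.22). For *Loxl4* the order was reversed at D20, with -1.21 in *M. musculus* and -1.64 in *A. cahirinus*. With the component that holds no *Lox* sequence, the *Loxl1* difference between species went from 2.45 to 1.51 and kept its direction. The largest difference at a single day was that of *Lox* at D5, 2.88 on the log2 scale, with its best-matching component. The second *Lox* component would narrow it, with a D5 log2 fold change of -0.31 against -0.51 in the best-matching one. On each later day the second component also had the higher log2 fold change.

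The fibrillar collagen chains, on which these enzymes act, rose in both species, and at D5 mainly in *M. musculus*. Of 7 chains listed, 6 were called higher in *M. musculus* on each day, while *Col11a1*, a cartilage chain, had a mean of 1.28 at D0 there and was not called. The median of the 7 ran 2.45, 3.39, 3.50 and 3.23 in *M. musculus*. In *A. cahirinus* it ran 0.25, 2.46, 2.96 and 2.51. In *A. cahirinus* 1 of 7 was called higher at D5, *Col5a3*, and all 7 at D10, D15 and D20. *Col1a1*, the main chain of skin collagen, went from 8152 to 47044, 107316, 109326 and 120806 in *M. musculus*. In *A. cahirinus* it went from 6431 to 4313, 27176, 49967 and 36579, with a D5 log2 fold change of -0.58 that was not called. *Col3a1* followed with a log2 fold change at D15 of 3.28, and of 3.10 in the spiny mouse. The highest mean log2 fold change of the *A. cahirinus* chains was that of *Col5a1* (2.32) and the lowest that of *Col11a1* (0.65), and *Col5a3* was the lowest of the 6 in *M. musculus* (2.53). In *A. cahirinus*, *Serpinh1* and *Plod1* were thus called at D5, as was *Loxl3*, on a day on which 6 of the 7 chains were not.

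Other genes of hydroxylation and folding mostly rose too. Of 15 listed, 12 had a placed number in *M. musculus*, of which 9 were called higher at D5 and 10 on each later day, with 1 lower. In *A. cahirinus* all 15 had a component, of which 7 were called higher at D5 and 11 on each later day, with 2 lower at D5 and 1 after. The medians ran 1.27, 1.37, 1.33 and 1.24 in the former and 0.39, 1.11, 0.99 and 0.88 in the latter. *P4ha3*, the prolyl 4-hydroxylase subunit not among the 10 members, had the largest mean log2 fold change of the list in both species. Its means were 5.70, 72.4, 128, 124 and 78.8 in *M. musculus*. In *A. cahirinus* they were 43.0, 167, 701, 802 and 593. That is 22.5-fold at D10 in the former and 18.7-fold at D15 in the latter, against at most 1.59-fold for *P4ha1* in *M. musculus* and 2.29-fold for *P4ha2* in *A. cahirinus*, and the 5.70 at D0 rests on few reads. *P4hb*, the shared beta subunit of prolyl 4-hydroxylase, was 2.92-fold higher at D5 in *M. musculus* and 2.06-fold in *A. cahirinus*, called on all 4 days in both. *Plod3*, the lysyl hydroxylase that also glycosylates collagen, was 2.62-fold and 2.27-fold higher at D5, again called on all 4 days in both. *Colgalt2*, a collagen galactosyltransferase, fell in *M. musculus* on all 4 days (mean log2 fold change -1.57), and the prolyl 3-hydroxylase *P3h2* fell in *A. cahirinus* from D10 (mean -0.61).

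**Figure D5:**
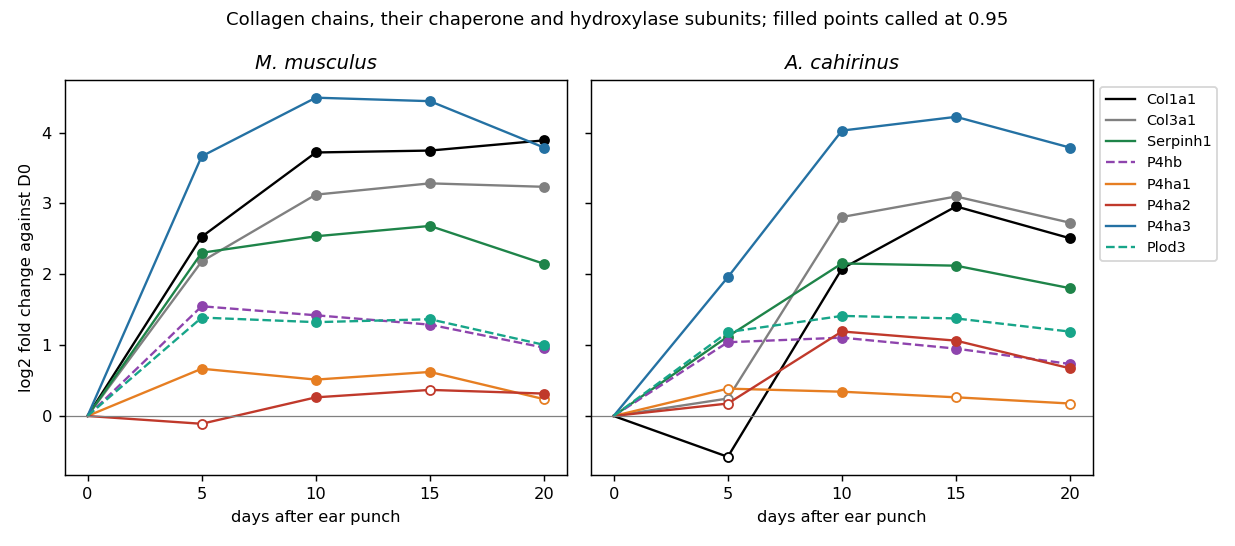
Log2 fold change against D0 by days after the punch of 2 collagen chains, *Serpinh1*, *P4hb*, *Plod3* and the 3 prolyl 4-hydroxylase alpha subunits, *M. musculus* left and *A. cahirinus* right, filled where called. *P4ha3* is the top line in both panels at D5, D10 and D15, and *P4ha1* and *P4ha2* lie lowest in *M. musculus*.

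Among 12 genes of collagen trimming and fibril assembly, 5 were called higher in *M. musculus* on each day and 2 to 3 lower. In *A. cahirinus* 2, 5, 6 and 4 were higher over the 4 days, with 3 lower at D5 and 1 after. Median log2 fold changes lay between -0.18 and 0.31 in *M. musculus* and between -0.23 and 0.74 in *A. cahirinus*. *Bmp1*, the protease that removes the procollagen end and also activates lysyl oxidase, rose on all 4 days in both species, 5.12-fold at D10 in *M. musculus* and 3.20-fold at D15 in *A. cahirinus*. *Postn*, a matrix protein that brings *Bmp1* and lysyl oxidase together, was highest of the list in *M. musculus* (mean log2 fold change 2.25). In *A. cahirinus* it was called lower at D5 (log2 fold change -0.75) and higher at D15 (0.51) and D20 (0.58). *Pcolce2*, an enhancer of *Bmp1*, fell on all 4 days in both (mean -1.47 and -1.17).

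Of the 5 elastic fibre genes, 3, 4, 4 and 5 were called higher in *M. musculus* over the 4 days, with 1 lower at D5 and D10 and medians of 1.23 to 1.91. In *A. cahirinus* 4 were assigned, all but *Efemp2*, with medians of -0.71 to 0.17, of which 1 was higher at D5 and 2 on each later day, with 1 lower throughout. *Fbn1*, encoding fibrillin 1, rose on all 4 days in both (mean log2 fold change 2.48 and 0.83). *Ltbp4* fell on all 4 days in *A. cahirinus* (-1.53), and in *M. musculus* it was lower at D5 and D10 and higher at D20.

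Several members are known hypoxia targets, so 9 genes that hypoxia induces were read beside them. Of 8 placed in *M. musculus*, EBSeq called 7, 3, 0 and 1 higher over the 4 days and 2 lower at D20, with a median that was highest at D5 and was 0.61, 0.52 and -0.24 on the later days. Of 9 in *A. cahirinus*, 6, 3, 2 and 2 were higher and 3 were lower from D10, with medians of 0.80, 0.19, -0.13 and 0.03. *Pgk1* was 3.39-fold higher at D5 in *M. musculus*, *Slc2a1* was 5.65-fold higher at D5 in *A. cahirinus*, and *Bnip3* was lowest of the list in both. Of the 10 members, *Lox* in *M. musculus* and *P4ha1* in both species had their highest mean at D5. The part of hypoxia in the members' values was not tested.

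Out of 10226 ortholog pairs that reached a mean of 10 in each species, those whose 8 log2 fold changes lay nearest to the medians of the members included *Svbp*, *Calu*, *Lama4* and *Dpy19l1*. Their root mean square distances from the medians were 0.17 to 0.20 on the log2 scale.

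The tissue is a mixture of cells, and in bulk RNA fewer cells of a type and less RNA per cell cannot be told apart. Of the fibroblast markers, *Pdgfra* was called higher on all 4 days in both species, and *Col6a1* and *Col6a2* on all 4 days in *M. musculus* and from D10 in *A. cahirinus*. *Dcn*, assigned in *M. musculus* only, was called on no day, with a log2 fold change of -0.05 at D5 and 0.70 at D20. The summed mean went from 13198 at D0 to 23795 at D5 and 50700.4 at D15 in *M. musculus* (4 of 4 markers), and from 6170.2 to 7948 and 32704 in *A. cahirinus* (3 of 4). Smooth muscle and myofibroblast markers summed to 541 at D0 and 1765 at D5 in *M. musculus* (4 of 4), with 2, 3, 3 and 1 called higher over the 4 days. In *A. cahirinus* (3 of 4, without *Acta2*) they summed to 709, 561 at D5 and 2279 at D10, with 1 called lower at D5 and 2, 2 and 1 called higher later. Skeletal muscle markers fell on all 4 days, at D5 from 15368.5 to 3007 in *M. musculus* (3 of 4) and from 13080 to 1177 in *A. cahirinus* (2 of 4).

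Of the endothelial markers (4 of 4 each), in *M. musculus* all 4 were called higher at D5, D15 and D20 and 3 at D10, and their sum went from 987 at D0 to 2302 at D5. In *A. cahirinus* 0 were called higher and 1, 1, 2 and 4 were called lower over the 4 days, and the sum went from 3065 to 1830.3 at D20. The difference between species was not tested. Cartilage markers (3 of 4 each) were mixed in *M. musculus*, where *Col2a1* was called higher on all 4 days, 9.18-fold at D20, and *Acan* lower on all 4, with sums between 2558 and 4643. In *A. cahirinus* *Sox9* and *Comp* were called lower on all 4 days, and the sum went from 5485 at D0 to 2525 at D20. Adipocyte markers fell in both. In *M. musculus* (3 of 4) all 3 were called lower up to D15, with sums of 914, 544, 422, 485 and 820.2, and 0 were called at D20. In *A. cahirinus* (4 of 4) 3 were called lower at D5 and 4 from D10 on, and the sum went from 7159 to 965 at D20. Macrophage markers rose, with sums of 1372 at D0 and 3456 at D5 in *M. musculus* (2 of 4, both called on all 4 days) and of 1197 and 5894 in *A. cahirinus* (3 of 4, all called up to D15). Basal keratinocyte markers (2 of 4 each) summed to 27247 at D0 and 78879 at D5 in *M. musculus*, where *Krt14* was 4.76-fold higher at D5 and *Col17a1* was called lower on all 4 days. In *A. cahirinus* they summed to 8291 and 11334, with both markers called higher at D5 and *Col17a1* lower from D10. None of the measured markers was at 0. The part of these shifts in the members' values was not tested.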

How the data were processed

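The authors counted reads of rRNA-reduced, strand-specific libraries with RSEM on mm10 gene annotations (*M. musculus*) or a Trinity assembly (*A. cahirinus*), and compared each day with D0 by EBSeq within a species. The deposited tables give per gene a posterior probability, a score between 0 and 1, and a pair of fold changes that divide D0 by the day (a ratio); these columns are the authors' own comparison and the only values used. The deposited BLASTN table gives the identity in percent.

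Group means were recovered from the 2 ratios and scaled to the D5 table of the species. Ratios simulated without noise by the same formula gave their means back, which checks the arithmetic alone. The simulation used a larger constant in the second ratio than the data have. Among 17664 components of *A. cahirinus* and up to 9340 genes of *M. musculus* with high D0 means, these differed between the 4 tables by at most 0.0039 on the log2 scale. Lower means were not compared. *M. musculus* gene numbers were named by placing the reference's transcripts, matched to GENCODE with minimap2 2.31, in the text order of the numbers. Of held-out known answers placed with a probability of at least 0.9, 1501 of 1502 were right. Of all held-out answers placed, which include those with a lower probability, as *Serpinh1* had, 1887 of 1990 were right. *A. cahirinus* values are those of the component with the top bit score below 99% identity; for genes other than the 10 members the component's own best match had to be the same gene, by its symbol or by its *M. musculus* gene number. Members and lists were chosen with earlier results of these data known. Genes beyond the members were named as the highest and lowest of each list with a mean of at least 10, with *P4hb*, *P4ha3*, *Plod3*, *Col1a1* and *Col3a1*. Alternatives were a probability of 0.99, a mean of at least 10, a fold of 2, the second ratio, a pseudocount of 1, centring, other component choices and summed components. No value per animal was used here, so no test beyond the authors' was run. Of the 5 genes with the pattern nearest to the members, 1 is not reported here. Computations used Python 3.11.15, numpy 2.4.6 and pandas 2.3.3.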

Additional observations from a re-analysis of the deposited data

Results flagged for a closer look

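Among the pathway genes, *Eln* (elastin, a substrate of lysyl oxidases) and *Tmem38b* (an endoplasmic reticulum ion channel needed for collagen synthesis) had log2 fold changes of opposite sign in the species on all 4 days. For *Eln* the mean over the 4 days was 1.78 in *M. musculus*, called higher on 3 days, and -0.998 in *A. cahirinus*, called on no day. For *Tmem38b* it was 0.91 in *M. musculus*, called higher on 3 days, and -0.22 in *A. cahirinus*, called on no day. These were named after their values were seen, and the species difference itself was not tested.

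Components that the comparison of members does not use carried signal of *Loxl1*, with a mean of 249 at D0, and of *Lox*, with a mean of 859.6 at D0, the latter above the 451 of the component used for *Lox*.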

How the results depend on the processing

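None of the alternatives turned the direction of a called log2 fold change of the members, and as unlogged ratios their medians moved by less than 1.5-fold under each. On the log2 scale the *A. cahirinus* median at D5 went from 0.16 to 0.28 with the *Loxl1* component without *Lox* sequence and the second *Lox* component. Requiring a fold of 2 lowered the members called higher in *M. musculus* to 5, 7, 6 and 5 over the 4 days, and in *A. cahirinus* to 2, 5, 4 and 3. The share of all genes or components called at a fold of 2 was not counted. These member counts therefore cannot be set against the shares given above, which have no fold limit. For the lists, only those counts of genes called in either direction are given that moved by more than 1.5-fold. At a fold of 2 they were as follows in *A. cahirinus*. Of the substrates 0 were called at D5. Of other hydroxylation and folding 4 were called at D5 and 7 at D15 and D20. Of trimming and fibril assembly it was 3 at D5 and 4 at D15, and of the elastic fibre genes 1 at D5, D15 and D20. Of the hypoxia genes it was 3 at D5 and 1 on each later day. In *M. musculus* 3 elastic fibre genes were called at D20, and 4, 1 and 1 hypoxia genes at D5, D10 and D20. At a probability of 0.99, 5 genes of trimming and fibril assembly were called at D20 in *M. musculus* and 1 elastic fibre gene at D5 in *A. cahirinus*. A stricter rule can only lower these counts. With the other components for *Loxl1* and *Lox*, 5 values moved, and the *Loxl1* log2 fold change at D15 went from 0.78 to 1.83. Of 702 alternative values 673 stayed within 1.5-fold, among them all from centring, the pseudocount and summed components. Many of these had little room to move, as the lowest member mean was 65.5, far above a pseudocount of 1 or a mean of 10. At a fold of 2, 22 values moved and 34 stayed. The top component at any identity and the reciprocal best hit were the same component for all 10 members, so those values could not move. Depth was not varied, and the lowest means, such as that of *P4ha3* at D0 in *M. musculus*, rest on few reads. No paired analysis was possible because the tables hold 1 pooled value per group, and for the same reason no replicate was left out.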
